A study of Mus musculus with 9 samples.

Results

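The 10 genes described here, Slc12a3, Pvalb, Trpm6, Trpv5, Calb1, S100g, Slc8a1, Klk1, Wnk1 and Wnk4, handle salt, calcium and magnesium in the distal convoluted and connecting tubules of the kidney. They are a list of named genes, with no threshold on their values, and all 10 were found among the 56923 gene identifiers of the count table. This list and the related lists below were chosen with earlier results of these data known. Counts of their calls therefore describe the lists and are no independent test of them. RNA was sequenced from kidneys of wild-type mice in 9 libraries, 3 in each of 3 groups. Sham mice underwent surgery with no ischemia-reperfusion injury, and their treatment is given as phosphate-buffered saline. AKI_PBS mice had acute kidney injury and were given the saline. AKI_PTPi_mEVs mice had the injury and were given extracellular vesicles made from milk that carried siRNA to PTP1B, a tyrosine phosphatase whose gene is Ptpn1. Vesicles without siRNA, or with a control siRNA, were not among the groups, so vesicle and siRNA cannot be told apart. The labels give no strain, age, sex or time after injury. They do not say that the 3 libraries of a group come from separate animals, so the p-values measure only the spread between these libraries, which may be technical.

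The distal convoluted tubule takes up sodium chloride through the thiazide-sensitive cotransporter, the product of Slc12a3, whose activity is set by the WNK kinases. Magnesium enters the same cells through the channel TRPM6. Further along, calcium enters through TRPV5, is carried across the cell by calbindins and leaves at the blood side through the sodium-calcium exchanger encoded by Slc8a1, while connecting tubule cells also release the kallikrein encoded by Klk1.

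The stretch just before the start of transcription is shown for 4 of the genes, chosen because 1 of them carries a TATA box and the other 3 fell in AKI_PTPi_mEVs against AKI_PBS, the comparison meant below by a change with the vesicles. Each is the 250 bases before the RefSeq start on assembly GRCm38.p6, read 5′ to 3′ on the gene's strand, with a TATAAA in capitals where it occurs. Slc12a3 is on chr8:94328958-94329207 (plus strand), Trpm6 on chr19:18749480-18749729 (plus strand), S100g on chrX:162964600-162964849 (minus strand) and Klk1 on chr7:44225110-44225359 (plus strand).
Slc12a3: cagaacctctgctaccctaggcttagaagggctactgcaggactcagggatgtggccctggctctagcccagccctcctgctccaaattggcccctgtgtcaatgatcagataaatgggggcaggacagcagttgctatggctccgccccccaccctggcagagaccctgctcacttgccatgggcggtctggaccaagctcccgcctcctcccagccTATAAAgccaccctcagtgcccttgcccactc
Trpm6: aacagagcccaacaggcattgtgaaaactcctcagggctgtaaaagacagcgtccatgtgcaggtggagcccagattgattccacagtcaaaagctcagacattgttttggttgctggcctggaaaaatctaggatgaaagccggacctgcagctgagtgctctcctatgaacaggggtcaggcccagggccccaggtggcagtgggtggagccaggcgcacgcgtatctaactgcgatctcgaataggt
S100g: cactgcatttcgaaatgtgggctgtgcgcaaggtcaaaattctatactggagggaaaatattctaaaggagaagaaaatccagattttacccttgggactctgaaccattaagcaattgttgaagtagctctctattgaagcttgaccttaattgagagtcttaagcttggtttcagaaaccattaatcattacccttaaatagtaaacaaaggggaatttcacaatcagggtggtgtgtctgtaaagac
Klk1: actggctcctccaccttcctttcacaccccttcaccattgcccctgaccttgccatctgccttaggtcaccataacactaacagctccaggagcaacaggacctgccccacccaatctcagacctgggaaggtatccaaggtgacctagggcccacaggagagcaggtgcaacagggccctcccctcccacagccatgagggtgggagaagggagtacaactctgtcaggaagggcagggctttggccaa
The table of RefSeq promoters held a window for 9 of the 10 genes, all but Calb1, and 10 windows in all, since Pvalb had 2. TATAAA on either strand was found in the windows of Slc12a3, where it began 32 bases before the RefSeq start, and Trpv5, where it began 43 bases before it. The motif was present in 12.4% of 32851 windows of the same length over all genes. RefSeq starts can differ from those of the gene models given below. The Trpv5 window spans 41680724 to 41680973 on the minus strand, and its gene model ends at 41680769, so its TATAAA lies inside that model. The Trpm6 window ends at 18749729, and its gene model starts at 18749983. None of the 10 windows held an AP-1 motif (TGANTCA, in 6.75% of all windows), a cyclic AMP element (TGACGTCA, 1.55%), an E-box (CACGTG, 6.02%), an estrogen-related receptor motif (TCAAGGTCA, 0.387%) or a glucocorticoid receptor motif (0.387%), searched on both strands. These are matches of letters and no measure of binding.

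The libraries held between 9467851 and 11389479 counts. The gene against which the siRNA is directed, Ptpn1, stood at 81.4, 91.0 and 98.6 counts per 1000000 counts (CPM, scaled with TMM factors) in sham, 121, 144 and 166 in AKI_PBS, and 106, 109.6 and 93.8 in AKI_PTPi_mEVs. It was higher in AKI_PBS than in sham by 0.71 ± 0.15 on the log2 scale (SE, edgeR adjusted p = 0.00120). In AKI_PTPi_mEVs it was lower than in AKI_PBS (-0.53 ± 0.15, edgeR adjusted p = 0.00862). Against sham it differed there by 0.18 ± 0.15 (edgeR adjusted p = 0.455). Of all tested genes 25.8% were lower in AKI_PTPi_mEVs than in AKI_PBS at an edgeR adjusted p under 0.05. The part of the siRNA in the lower Ptpn1 level was not tested. On the third principal component, which held 6.27% of the variance, AKI_PBS replicate 3 (-44.1) stood apart from the other AKI_PBS libraries (28.3 and 20.6). It was the highest AKI_PBS library for several of the genes below, and the results that turn on it are given with and without it.

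The 10 genes did not change as one between the groups. A gene was called changed when edgeR's quasi-likelihood test gave a Benjamini-Hochberg adjusted p under 0.05 over the 17036 genes tested, and all 10 passed the filter on low counts. In AKI_PBS against sham, 3 were called higher (Trpm6, Trpv5 and S100g), 5 lower (Pvalb, Calb1, Slc8a1, Wnk1 and Wnk4) and 2 were not called. Of all tested genes 55.7% were called in this comparison, 27.8% higher and 27.9% lower. The 8 called of 10 are to be read against that background, and the 10 were chosen with earlier results known. In AKI_PTPi_mEVs against AKI_PBS, 1 was called higher (Slc8a1) and 4 lower (Trpm6, Trpv5, S100g and Klk1), where 51.1% of all genes were called, 25.4% higher and 25.8% lower. That share of the members is close to the background. In AKI_PTPi_mEVs against sham, 5 were called lower (Pvalb, Calb1, Slc8a1, Klk1 and Wnk4), where 13.2% of all genes were called, 7.43% higher and 5.79% lower. None was called higher by edgeR, with 0 at an unadjusted p under 0.05, 0 by DESeq2 and 0 by limma voom. The median log2 change of the 10 genes was -0.23, -0.44 and -0.63 in these comparisons, in that order, beside 0.03, -0.03 and -0.01 over all genes. Without AKI_PBS replicate 3 the calls were 3 higher and 5 lower in the first of these comparisons (Slc12a3 gained and Wnk4 lost), 2 higher and 4 lower in the next and 7 lower in the last. Every pair of these comparisons shares a group of libraries. RNA was taken from kidney tissue, so fewer cells of a type and less RNA per cell cannot be told apart.

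**Figure D1:**
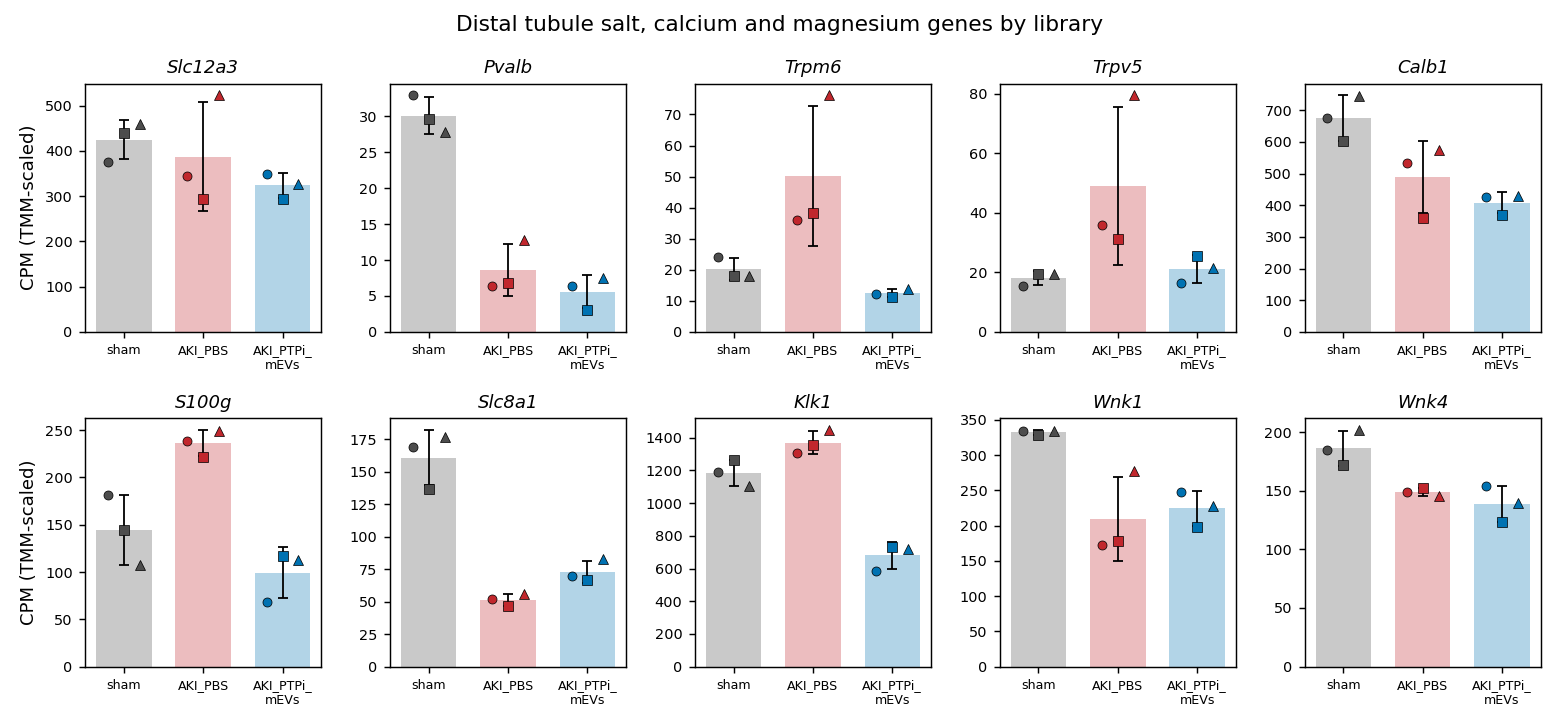
CPM of each of the 10 genes in each library (y axis, scaled with TMM factors, a separate axis for each gene), with bars for the group mean, error bars for the SD over 3 libraries and circle, square and triangle for replicates 1, 2 and 3. Trpm6, Trpv5 and S100g are highest in AKI_PBS, Pvalb and Slc8a1 are highest in sham, and Klk1 is lowest in AKI_PTPi_mEVs.

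Slc12a3 (chromosome 8, 94329201 to 94366214, plus strand, GRCm38 as for all genes here) encodes the thiazide-sensitive sodium chloride cotransporter, the defining gene of the distal convoluted tubule. Its level in sham was 376, 440.4 and 459 CPM. In AKI_PBS it was 346, 294 and 522 CPM, and in AKI_PTPi_mEVs 349.8, 294 and 328 CPM. The AKI_PBS libraries spanned the sham range, with replicate 3 above every sham library and replicates 1 and 2 below, while the 3 vesicle libraries lay below all sham libraries. Slc12a3 was called in none of the comparisons. Against sham it differed by -0.13 ± 0.19 on the log2 scale in AKI_PBS (95% interval -0.55 to 0.28, edgeR adjusted p = 0.573) and by -0.39 ± 0.19 in AKI_PTPi_mEVs (-0.81 to 0.02, edgeR adjusted p = 0.194). Between AKI_PTPi_mEVs and AKI_PBS it differed by -0.26 ± 0.19 (-0.67 to 0.15, edgeR adjusted p = 0.272). The first value turned on 1 library. Without AKI_PBS replicate 3, Slc12a3 was lower in AKI_PBS than in sham by 0.41 ± 0.15 and was called (-0.41, edgeR adjusted p = 0.0345). Without AKI_PBS replicate 2 the value was 0.03.

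Pvalb (chromosome 15, 78191114 to 78206400, minus strand) encodes parvalbumin, a calcium-binding protein of the early distal convoluted tubule. Sham libraries held 32.9, 29.6 and 27.9 CPM. AKI_PBS libraries held 6.38, 6.75 and 12.9 CPM and AKI_PTPi_mEVs libraries 6.32, 3.05 and 7.46 CPM. Both injured groups lay below every sham library, and they overlapped with each other. Pvalb fell 3.48-fold in AKI_PBS (-1.80 ± 0.30, edgeR adjusted p = 0.000299) and 5.35-fold in AKI_PTPi_mEVs (-2.42 ± 0.32, edgeR adjusted p = 0.000703) against sham, the widest difference of the 10 genes in both comparisons. The vesicle group differed from AKI_PBS by -0.62 ± 0.32 (95% interval -1.32 to 0.08, edgeR adjusted p = 0.124). Without AKI_PBS replicate 3, the highest of its group, that difference was -0.22 ± 0.29 (edgeR adjusted p = 0.549), and it was called in 1 of 18 other settings, the one with no filter on low counts (-0.58, edgeR adjusted p = 0.0496). Within a library, Pvalb had 0.0876, 0.0672 and 0.0607 counts for each Slc12a3 count in sham, 0.0185, 0.0230 and 0.0246 in AKI_PBS and 0.0181, 0.0104 and 0.0228 in AKI_PTPi_mEVs. All 6 injured libraries were below the lowest sham library on this ratio, which does not depend on how libraries were scaled.

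Wnk1 (chromosome 6, 119923969 to 120038672, minus strand) and Wnk4 (chromosome 11, 101260567 to 101277409, plus strand) encode kinases that act on the cotransporter through the kinases SPAK and OSR1. Wnk1 was even in sham at 334, 329 and 334 CPM. It stood at 172, 178 and 278 CPM in AKI_PBS and at 248, 198 and 227 CPM in AKI_PTPi_mEVs. Every injured library was below every sham library, and the injured groups overlapped, with AKI_PBS replicate 3 the highest of the 6. Wnk1 fell 1.59-fold in AKI_PBS against sham (-0.67 ± 0.18, edgeR adjusted p = 0.00669). In AKI_PTPi_mEVs against sham the difference was -0.57 ± 0.18 and just missed the threshold (edgeR adjusted p = 0.0536). It was called in 9 of 18 other settings, among them DESeq2 (adjusted p = 0.0269) and limma voom (adjusted p = 0.0482), and the range over all settings was 0.00720 to 0.774. Between the injured groups the difference was 0.10 ± 0.18 (95% interval -0.28 to 0.49, edgeR adjusted p = 0.658). Without AKI_PBS replicate 3 it was 0.36 ± 0.14 and was called (edgeR adjusted p = 0.0410). The table sums all reads of Wnk1, so its long form and the short kidney form that lacks the kinase domain were not separated.

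Wnk4 stood at 185, 172 and 202 CPM in sham. It was at 149, 153 and 146 CPM in AKI_PBS and at 154, 123 and 139 CPM in AKI_PTPi_mEVs. All 6 injured libraries were below the 3 sham libraries, by a margin that was small beside that of Pvalb. The fall was 1.25-fold in AKI_PBS (-0.32 ± 0.13, edgeR adjusted p = 0.0491) and 1.34-fold in AKI_PTPi_mEVs (-0.42 ± 0.13, edgeR adjusted p = 0.0454). Both calls lay close to the threshold. The first was lost in 12 of 18 other settings and the second in 11 of 18. The injured groups differed by -0.11 ± 0.13 (95% interval -0.38 to 0.17, edgeR adjusted p = 0.513). Counts of Wnk1 for each count of Wnk4 were 1.80, 1.92 and 1.66 in sham, 1.15, 1.16 and 1.91 in AKI_PBS and 1.61, 1.61 and 1.63 in AKI_PTPi_mEVs. On this ratio only AKI_PBS replicates 1 and 2 stood apart from the other libraries, and AKI_PBS replicate 3 was within the sham range.

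**Figure D2:**
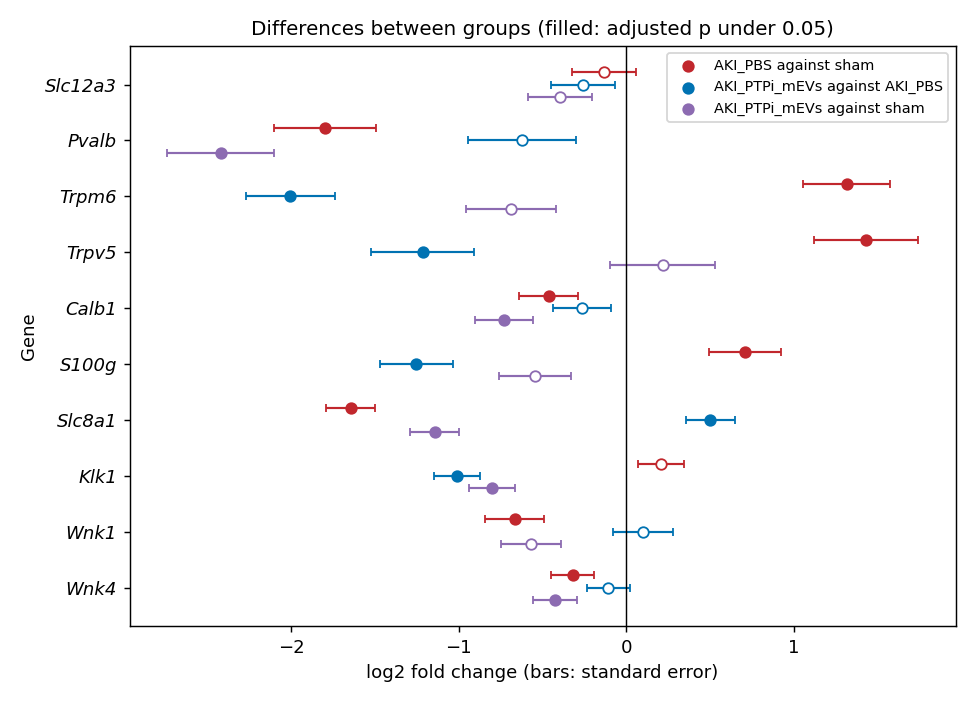
Log2 fold change of each gene (x axis, with bars for the standard error) in AKI_PBS against sham, AKI_PTPi_mEVs against AKI_PBS and AKI_PTPi_mEVs against sham, filled where the edgeR adjusted p was under 0.05. Trpm6, Trpv5 and S100g lie to the right in the first comparison and to the left in the second, while Slc8a1 lies on the opposite sides.

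Trpm6 (chromosome 19, 18749983 to 18892511, plus strand) encodes the channel through which magnesium enters cells of the distal convoluted tubule. Sham libraries held 24.2, 18.1 and 18.1 CPM. AKI_PBS libraries held 36.0, 38.4 and 76.1 CPM, and AKI_PTPi_mEVs libraries 12.3, 11.3 and 13.9 CPM. The groups did not overlap in any pair: AKI_PBS was highest, sham in the middle and AKI_PTPi_mEVs lowest. Trpm6 rose 2.49-fold in AKI_PBS against sham (1.32 ± 0.26, edgeR adjusted p = 0.000878) and fell 4.01-fold in AKI_PTPi_mEVs against AKI_PBS (-2.004 ± 0.27, edgeR adjusted p = 6.86e-05). The vesicle group differed from sham by -0.69 ± 0.27 and was not called (95% interval -1.27 to -0.11, edgeR adjusted p = 0.108). AKI_PBS replicate 3 was far above the other 2 libraries of its group. Without it the rise was 0.89 ± 0.17 (edgeR adjusted p = 0.000747), the fall with the vesicles -1.57 ± 0.17 (edgeR adjusted p = 2.19e-05). The difference between AKI_PTPi_mEVs and sham was then called (-0.68 ± 0.16, edgeR adjusted p = 0.0112). The ratio of Trpm6 to Slc12a3 counts was 0.0644, 0.0411 and 0.0395 in sham, 0.104, 0.131 and 0.146 in AKI_PBS and 0.0351, 0.0386 and 0.0425 in AKI_PTPi_mEVs. AKI_PBS was above all other libraries on this ratio, replicates 1 and 2 included, while the vesicle libraries overlapped with sham.

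Trpv5 (chromosome 6, 41652173 to 41680769, minus strand) encodes the channel by which calcium enters from the urine side of the late distal convoluted and connecting tubules. Its sham level was 15.5, 19.4 and 19.5 CPM. In AKI_PBS it was 35.9, 31.4 and 79.5 CPM, and in AKI_PTPi_mEVs 16.4, 25.6 and 21.4 CPM. Each AKI_PBS library was above all others, and the vesicle and sham libraries overlapped. Trpv5 rose 2.70-fold in AKI_PBS against sham (1.43 ± 0.31, edgeR adjusted p = 0.00194) and fell 2.32-fold in AKI_PTPi_mEVs against AKI_PBS (-1.21 ± 0.31, edgeR adjusted p = 0.00592). AKI_PBS replicate 3 set much of the size. Without it the rise was 0.89 ± 0.19 (edgeR adjusted p = 0.00168) and the fall -0.67 ± 0.19 (edgeR adjusted p = 0.0104). AKI_PTPi_mEVs and sham differed by 0.22 ± 0.31 (95% interval -0.46 to 0.90, edgeR adjusted p = 0.702).

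The calbindins bind calcium in the cell and carry it from TRPV5 to the blood side, and the 2 of them went in opposite directions in AKI_PBS against sham. Calb1, the larger (chromosome 4, 15881264 to 15908064, plus strand), had 677, 603 and 746 CPM in sham. It had 533, 361 and 575 CPM in AKI_PBS and 425, 369 and 429.9 CPM in AKI_PTPi_mEVs. Both injured groups were below sham and overlapped with each other. Calb1 fell 1.38-fold in AKI_PBS (-0.46 ± 0.17, edgeR adjusted p = 0.0369) and 1.66-fold in AKI_PTPi_mEVs (-0.73 ± 0.17, edgeR adjusted p = 0.0168). The first call was lost in 6 of 18 other settings. It was -0.28 ± 0.15 without AKI_PBS replicate 2 (edgeR adjusted p = 0.140), -0.47 without sham replicate 1 (edgeR adjusted p = 0.0676) and -0.39 without sham replicate 3 (edgeR adjusted p = 0.112). The second call was lost without sham replicate 1 (edgeR adjusted p = 0.0521), sham replicate 3 (edgeR adjusted p = 0.0580) or AKI_PTPi_mEVs replicate 2 (edgeR adjusted p = 0.0781). AKI_PTPi_mEVs differed from AKI_PBS by -0.26 ± 0.17 (95% interval -0.64 to 0.11, edgeR adjusted p = 0.218), and by -0.44 without AKI_PBS replicate 2, where it was called (edgeR adjusted p = 0.0314).

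S100g, the small calbindin (chromosome X, 162961992 to 162964599, minus strand), had 182, 145 and 107 CPM in sham. It had 238, 222 and 249 CPM in AKI_PBS and 68.2, 117 and 113 CPM in AKI_PTPi_mEVs. The AKI_PBS libraries were close together and above the rest, and the vesicle libraries overlapped with sham. S100g rose 1.64-fold in AKI_PBS against sham (0.71 ± 0.21, edgeR adjusted p = 0.0133) and fell 2.38-fold in AKI_PTPi_mEVs against AKI_PBS (-1.25 ± 0.22, edgeR adjusted p = 0.000472). The rise was lost without sham replicate 3, the lowest sham library (0.53 ± 0.22, edgeR adjusted p = 0.0614). AKI_PTPi_mEVs and sham differed by -0.54 ± 0.22, not called (95% interval -1.01 to -0.08, edgeR adjusted p = 0.115). For each S100g count there were 3.72, 4.17 and 6.96 Calb1 counts in sham, 2.24, 1.62 and 2.31 in AKI_PBS and 6.23, 3.15 and 3.81 in AKI_PTPi_mEVs. The ratio was lower in every AKI_PBS library than in any other library. The gene model of S100g overlaps that of Ctps2, and those of Trpm6, Slc8a1, Klk1, Wnk1 and Wnk4 overlap gene models of small or non-coding RNAs or predicted genes. Reads of such partners cannot be told apart, since the strand setting of the counting is not given in the sources used here.

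Slc8a1 (chromosome 17, 81373105 to 81738377, minus strand) encodes the exchanger that moves calcium out of the cell in return for sodium. Its levels were 169, 137 and 176 CPM in sham. They were 52.4, 46.3 and 55.5 CPM in AKI_PBS and 69.4, 66.3 and 82.8 CPM in AKI_PTPi_mEVs. No group overlapped another: sham was highest, AKI_PBS lowest and AKI_PTPi_mEVs between them, nearer to AKI_PBS. Slc8a1 fell 3.13-fold in AKI_PBS against sham (-1.64 ± 0.15, edgeR adjusted p = 2.30e-06), the smallest p of the 10 genes in that comparison. It rose 1.42-fold in AKI_PTPi_mEVs against AKI_PBS (0.50 ± 0.15, edgeR adjusted p = 0.0117) and remained 2.21-fold below sham (-1.14 ± 0.15, edgeR adjusted p = 0.000576). The rise was the only one called among the 10 genes in that comparison. It narrowly missed the threshold without AKI_PBS replicate 2 (0.43 ± 0.16, edgeR adjusted p = 0.0501) or AKI_PTPi_mEVs replicate 3 (0.42 ± 0.16, edgeR adjusted p = 0.0551). Among the 10 genes, kidney RNA of the entry channel and small calbindin was thus higher in AKI_PBS than in sham. That of the large calbindin and the exchanger was lower. Atp2b1, a calcium pump of the blood side outside the 10, was higher in this comparison (0.79 ± 0.14, edgeR adjusted p = 0.000349). The cells in which these RNAs differed were not measured.

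**Figure D3:**
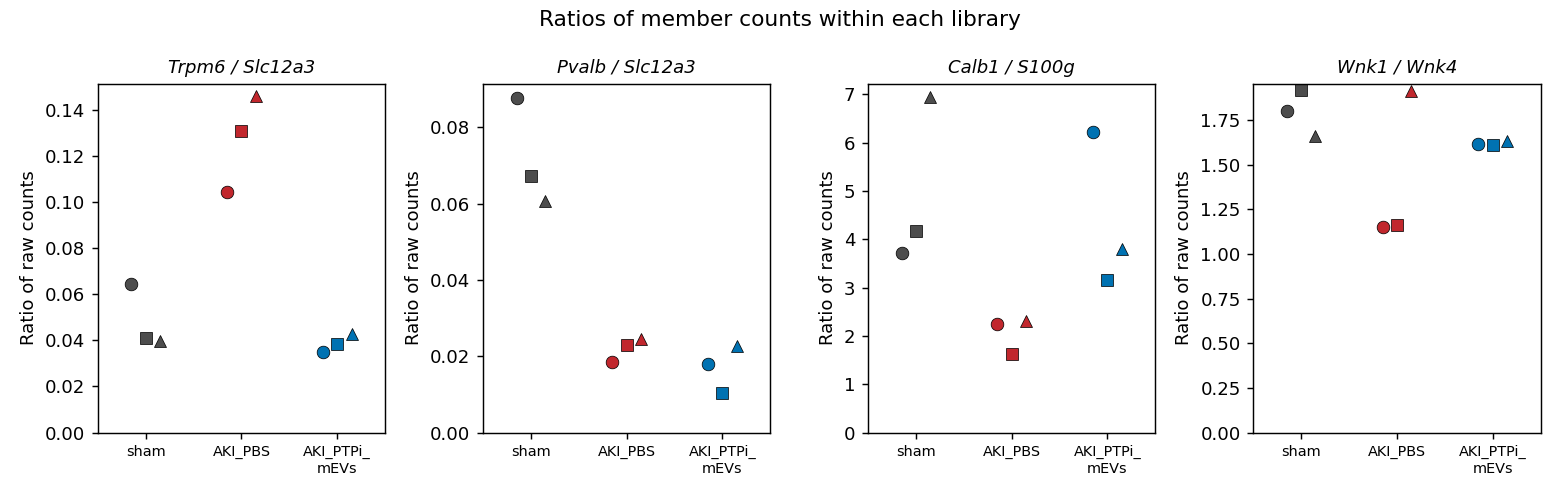
Ratios of raw counts within each library (y axes) for Trpm6 to Slc12a3, Pvalb to Slc12a3, Calb1 to S100g and Wnk1 to Wnk4 by group, with 1 point per library (circle, square and triangle for replicates 1, 2 and 3). AKI_PBS libraries are above all others for Trpm6 to Slc12a3 and below all others for Calb1 to S100g, both injured groups are below sham for Pvalb to Slc12a3, and AKI_PBS replicate 3 leaves its group for Wnk1 to Wnk4.

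Klk1 (chromosome 7, 44225360 to 44229618, plus strand) encodes tissue kallikrein, a protease that releases kinins and is made by connecting tubule cells. It had the highest level of the 10 genes, with 1189.7, 1262 and 1103 CPM in sham. AKI_PBS libraries held 1308, 1354 and 1446 CPM and AKI_PTPi_mEVs libraries 588, 733 and 722 CPM. The vesicle libraries were far below all others, and the AKI_PBS libraries lay just above the sham libraries. In AKI_PBS against sham the difference was 0.21 ± 0.14 and was not called (95% interval -0.09 to 0.51, edgeR adjusted p = 0.212). Klk1 fell 2.01-fold in AKI_PTPi_mEVs against AKI_PBS (-1.01 ± 0.14, edgeR adjusted p = 8.47e-05) and 1.74-fold against sham (-0.80 ± 0.14, edgeR adjusted p = 0.00324). Both falls were called with each library left out in turn.

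Klk1 lies at one end of a cluster of near copies on chromosome 7, whose RefSeq windows span 275.0 kb on GRCm38.p6, and reads could be split between them. The longest listed Klk1 transcript shares 257 of its 905 stretches of 50 bases (28.4%) with at least 1 of 13 copies, whose transcripts are 74.84% to 94.44% identical to it. The counts of Klk1 and of its copies are therefore uncertain. Of the 13 copies 10 were tested, 7 were called higher in AKI_PBS against sham, 10 lower in AKI_PTPi_mEVs against AKI_PBS and 3 lower in AKI_PTPi_mEVs against sham. In each comparison 0 were called the other way by edgeR, by DESeq2, by limma voom or at an unadjusted p under 0.05. Their median log2 changes were 1.198, -1.75 and -0.64. Over all tested genes 27.8% were called higher in the first of these comparisons, 25.8% lower in the next and 5.79% lower in the last. Of the 10 copies, 3 had the 3 libraries that the filter asks for only with AKI_PBS libraries counted: Klk1b16 (0 sham and 3 AKI_PBS libraries at the minimum), Klk1b3 (1 and 3) and Klk1b21 (2 and 1). These counts therefore lend no support to a change of the whole set. The most abundant copy, Klk1b5, had 10.1, 10.1 and 8.61 CPM in sham, 17.5, 17.5 and 14.01 in AKI_PBS and 4.85, 6.43 and 5.59 in AKI_PTPi_mEVs, with no overlap between groups. It rose in AKI_PBS against sham (0.77 ± 0.19, edgeR adjusted p = 0.00426) and fell in AKI_PTPi_mEVs against AKI_PBS (-1.54 ± 0.20, edgeR adjusted p = 5.24e-05) and against sham (-0.77 ± 0.20, edgeR adjusted p = 0.0248). The last of these was lost without any 1 of sham replicates 1 and 2 or the 3 vesicle libraries (edgeR adjusted p up to 0.101). Klk1b5 holds 18.78% of the 50-base stretches of Klk1, and the part of shared reads in these values was not tested. Klk1b8 rose in AKI_PBS against sham (1.51 ± 0.35, edgeR adjusted p = 0.00245) and fell with the vesicles (-1.75 ± 0.36, edgeR adjusted p = 0.00134). Klk1b16 had 20 counts in the sham libraries together, 60 in AKI_PBS and 7 in AKI_PTPi_mEVs, and is given without a test, since it passed the filter only through the group where it was high. Klk1b21 had 30 counts in sham, 35 in AKI_PBS and 1 in AKI_PTPi_mEVs. It is also given without a test, since it passed the filter only with AKI_PBS libraries counted.

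**Figure D4:**
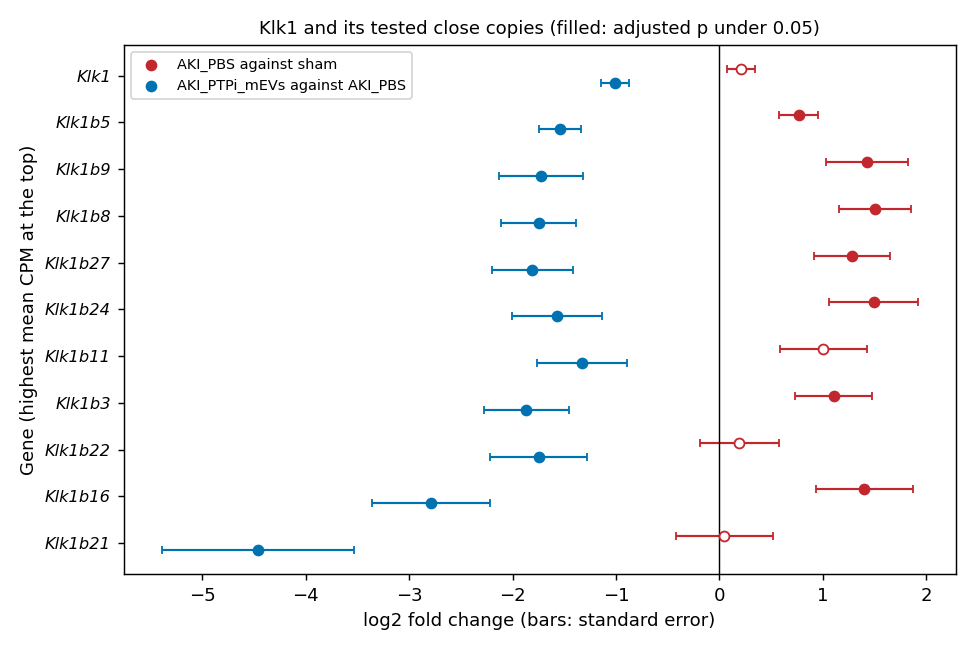
Log2 fold change (x axis, with bars for the standard error) of Klk1 and its 10 tested copies, ordered by mean CPM from the top, in AKI_PBS against sham and in AKI_PTPi_mEVs against AKI_PBS, filled where the edgeR adjusted p was under 0.05. All 11 genes lie below 0 in the second comparison. Klk1b3, Klk1b16 and Klk1b21 passed the filter on low counts only with AKI_PBS libraries counted, so their points and fills lend no support to a change. The point of Klk1b21 rests on 1 count in the vesicle libraries.

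The 10 genes together took 0.330%, 0.313% and 0.2997% of the counts in sham, 0.305%, 0.289% and 0.343% in AKI_PBS and 0.194%, 0.188% and 0.196% in AKI_PTPi_mEVs. Sham and AKI_PBS overlapped on this share and the vesicle libraries lay below both. Klk1 gave the largest part of this sum. Levels of different genes are compared here per length, as CPM per kb of the union of annotated exons. That union holds the exons of every annotated transcript, so it can exceed the RNA present and make a level too low. It was 11.119 kb for Slc12a3 and 4.148 kb for Wnk4, whose mean sham levels were 425 and 186 CPM before division. The order below thus depends on this length, and which transcripts were present was not tested. In sham Klk1 was highest at 1100.2 ± 74.2 CPM per kb (SD, n = 3), followed by S100g at 301 ± 77.8, Calb1 at 139 ± 14.7, Wnk4 at 44.9 ± 3.63, Slc12a3 at 38.2 ± 3.91 and Pvalb at 28.9 ± 2.47. Wnk1 at 14.6 ± 0.137, Slc8a1 at 8.55 ± 1.12, Trpv5 at 5.59 ± 0.692 and Trpm6 at 2.61 ± 0.457 CPM per kb closed the order. On this scale no neighbours in the sham order overlapped. In AKI_PBS the first 5 places were the same, with Wnk4 (35.9 ± 0.845) and Slc12a3 (34.8 ± 10.8) overlapping. Trpv5 (15.1 ± 8.19), Wnk1 (9.17 ± 2.62), Pvalb (8.32 ± 3.50) and Trpm6 (6.50 ± 2.92 CPM per kb) overlapped in a row below them, and Slc8a1 was last at 2.73 ± 0.248. In AKI_PTPi_mEVs the order was Klk1 (632 ± 75.2), S100g (207 ± 56.4), Calb1 (84.2 ± 6.94), Wnk4 (33.4 ± 3.71), Slc12a3 (29.1 ± 2.54), Wnk1 (9.84 ± 1.10), Trpv5 (6.51 ± 1.42), Pvalb (5.39 ± 2.20), Slc8a1 (3.87 ± 0.466) and Trpm6 (1.62 ± 0.171 CPM per kb). Wnk4 overlapped with Slc12a3 there, Trpv5 with Pvalb and Pvalb with Slc8a1. Trpm6 and Slc8a1 thus traded the last place between AKI_PBS and the other groups.

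Across the 9 libraries, log2 CPM of the genes fell into patterns that are given as descriptions, since the libraries share their groups. Trpm6 went with S100g (Pearson r = 0.87, n = 9), with Trpv5 (r = 0.82) and with Klk1 (r = 0.82), and S100g with Klk1 (r = 0.88). Pvalb went with Calb1 (r = 0.88), Wnk1 (r = 0.88), Wnk4 (r = 0.89) and Slc8a1 (r = 0.82). Between the first set and the second the values were mixed. Trpm6 with Wnk4 was near 0 (r = 0.06) and Trpv5 with Slc8a1 below it (r = -0.64), while Klk1 had positive values with Pvalb (r = 0.49), Calb1 (r = 0.48) and Wnk4 (r = 0.38). Deviations from the group means gave other values. Trpm6 then had r = 0.30 with S100g, 0.68 with Trpv5 and 0.32 with Klk1, and S100g 0.82 with Klk1. Pvalb had 0.52 with Calb1, 0.83 with Wnk1, 0.37 with Wnk4 and 0.55 with Slc8a1. Trpm6 with Wnk1, of the other set, was 0.88, beside -0.09 over the 9 libraries. The sets thus partly restate the group means.

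The other genes that act on the cotransporter were a list of 17 kinases, ubiquitin ligase parts, aldosterone pathway genes and channels. In AKI_PBS against sham 5 of the 17 were called higher and 7 lower (median log2 change 0.02), in AKI_PTPi_mEVs against AKI_PBS 7 higher and 5 lower (median -0.21), and in AKI_PTPi_mEVs against sham 0 higher and 2 lower (median -0.15). Beside these stand 27.8% higher and 27.9% lower of all genes in the first, 25.4% and 25.8% in the next and 7.43% and 5.79% in the last, so the 5 of 17 higher after injury were near the background. In the last comparison 0 were higher at an unadjusted p under 0.05, 0 by DESeq2 and 0 by limma voom. Subunits of the chloride and potassium channels at the blood side, Bsnd and Kcnj16, fell with injury and rose with the vesicles. Bsnd, the chloride channel subunit barttin, fell by 2.74 ± 0.21 (edgeR adjusted p = 7.26e-07) in AKI_PBS against sham and rose with the vesicles (2.44 ± 0.21, edgeR adjusted p = 2.64e-06). Kcnj16, a potassium channel subunit, fell by 1.07 ± 0.14 (edgeR adjusted p = 4.34e-05) and rose by 1.29 ± 0.14 (edgeR adjusted p = 1.59e-05). Klhl3, the adaptor by which WNK kinases are marked for degradation, fell by 2.28 ± 0.18 (edgeR adjusted p = 9.43e-07). With the vesicles it rose by 1.44 ± 0.18 (edgeR adjusted p = 3.41e-05) and stayed below sham (-0.84 ± 0.17, edgeR adjusted p = 0.00779). Cab39l, a partner of SPAK and OSR1, fell (-1.28 ± 0.14, edgeR adjusted p = 9.12e-06) and rose (1.33 ± 0.14, edgeR adjusted p = 1.07e-05). So did Hsd11b2, the enzyme that keeps glucocorticoids from the mineralocorticoid receptor, with -1.50 ± 0.13 (edgeR adjusted p = 1.92e-06) and 1.30 ± 0.13 (edgeR adjusted p = 8.88e-06). Ppp1r1a, an inhibitor of protein phosphatase 1, fell by 2.02 ± 0.16 (edgeR adjusted p = 8.67e-07), rose by 0.85 ± 0.15 (edgeR adjusted p = 0.000580) and stayed below sham (-1.17 ± 0.15, edgeR adjusted p = 0.000645). The 6 genes named from this list, those with the smallest adjusted p, all fell and then rose, which the list as a whole did not. Chosen after their values were seen, 2 of its genes called higher in AKI_PBS stand beside Cab39l. Cab39, its close relative, rose in AKI_PBS (0.84 ± 0.13, edgeR adjusted p = 0.000142) and fell with the vesicles (-0.86 ± 0.13, edgeR adjusted p = 0.000165), and Oxsr1, which encodes OSR1, rose (0.98 ± 0.18, edgeR adjusted p = 0.000470) and fell (-0.67 ± 0.18, edgeR adjusted p = 0.00673). The cotransporter gene itself was called in no comparison.

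Of 13 other magnesium genes 12 were tested. In AKI_PBS against sham 3 were called higher and 6 lower (median -0.54), in AKI_PTPi_mEVs against AKI_PBS 2 higher and 2 lower (median -0.08), and in AKI_PTPi_mEVs against sham 0 higher and 3 lower (median -0.07), against the shares of all genes just given. In the last comparison 0 were higher at an unadjusted p under 0.05, 0 by DESeq2 and 0 by limma voom. Slc41a1, a magnesium transporter, moved as Trpm6 did, higher in AKI_PBS (1.10 ± 0.15, edgeR adjusted p = 4.69e-05) and lower with the vesicles (-1.08 ± 0.15, edgeR adjusted p = 7.54e-05). The cyclin M genes of this list, Cnnm4 and Cnnm2, moved the other way. Cnnm3, a cyclin M gene outside the list, moved as Trpm6 did. It rose in AKI_PBS (0.52 ± 0.16, edgeR adjusted p = 0.0141) and fell with the vesicles (-0.94 ± 0.16, edgeR adjusted p = 0.0004025). Cnnm4 fell by 0.97 ± 0.14 (edgeR adjusted p = 7.18e-05) and rose by 1.18 ± 0.14 (edgeR adjusted p = 2.51e-05), and Cnnm2 fell by 0.92 ± 0.23 (edgeR adjusted p = 0.00404) and rose by 1.07 ± 0.23 (edgeR adjusted p = 0.00172). Trpm7, the channel kinase most like TRPM6, fell in AKI_PBS against sham (-0.65 ± 0.17, edgeR adjusted p = 0.00656), where Trpm6 rose. Fxyd2, a subunit of the sodium pump, fell in AKI_PBS (-0.58 ± 0.15, edgeR adjusted p = 0.00484) and was below sham in AKI_PTPi_mEVs (-0.64 ± 0.15, edgeR adjusted p = 0.0135). The latter call was lost without sham replicate 1 or 2 or AKI_PTPi_mEVs replicate 1 (edgeR adjusted p = 0.0501, 0.0681 and 0.0554). Pcbd1 fell in AKI_PBS (-1.31 ± 0.19, edgeR adjusted p = 0.000106) and was below sham in AKI_PTPi_mEVs (-0.92 ± 0.19, edgeR adjusted p = 0.00847).

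Of 11 other calcium genes, 4 were called higher and 4 lower in AKI_PBS against sham (median 0.04). In AKI_PTPi_mEVs against AKI_PBS 4 were higher and 3 lower (median 0.06). Of all genes 27.8% were higher and 27.9% lower in the first of these and 25.4% and 25.8% in the other. In AKI_PTPi_mEVs against sham 1 was higher and 0 lower by edgeR (median 0.15), with 1 lower at an unadjusted p under 0.05, 1 by DESeq2 and 1 by limma voom. Of all genes 7.43% were higher and 5.79% lower there, so the 1 of 11 higher was near the background. Trpv6, the channel most like TRPV5, rose in AKI_PBS (1.39 ± 0.31, edgeR adjusted p = 0.00186) and was also higher in AKI_PTPi_mEVs than in sham (1.36 ± 0.31, edgeR adjusted p = 0.0125), the 1 gene called higher there. That call was lost without sham replicate 1 (1.199, edgeR adjusted p = 0.0598). Trpv6 was low, at 1.76 to 3.43 CPM in sham, 5.26 to 8.02 in AKI_PBS and 5.48 to 6.59 in AKI_PTPi_mEVs. Atp2b1, a calcium pump of the blood side, rose in AKI_PBS against sham (0.79 ± 0.14, edgeR adjusted p = 0.000349), where the exchanger gene Slc8a1 fell. It was lower in AKI_PTPi_mEVs than in AKI_PBS (-0.35 ± 0.14, edgeR adjusted p = 0.0441), a call lost in 11 of 18 other settings. Pth1r, Kl and Casr, which sense calcium or its hormones, fell with injury and rose with the vesicles. Pth1r, the parathyroid hormone receptor, changed by -1.33 ± 0.16 (edgeR adjusted p = 2.65e-05) and 1.53 ± 0.16 (edgeR adjusted p = 1.39e-05). Kl, which encodes klotho, the partner of the receptor for FGF23, changed by -1.55 ± 0.23 (edgeR adjusted p = 0.000112) and 0.83 ± 0.23 (edgeR adjusted p = 0.00848), and Casr, the calcium-sensing receptor, by -0.90 ± 0.17 (edgeR adjusted p = 0.000726) and 0.61 ± 0.17 (edgeR adjusted p = 0.0104). Fgfr1 went the opposite way, with 0.90 ± 0.16 (edgeR adjusted p = 0.000458) and -0.71 ± 0.16 (edgeR adjusted p = 0.00290).

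The next list, also chosen with earlier results known, held 10 transcription factors and other genes of distal nephron identity. In AKI_PBS against sham 9 were called lower and 1 higher (median -1.05), in AKI_PTPi_mEVs against AKI_PBS 5 higher and 1 lower (median 0.51), and in AKI_PTPi_mEVs against sham 3 lower and 0 higher (median -0.54). Of all genes 27.9% were called lower in the first comparison, 25.4% higher in the next and 5.79% lower in the last. In the last comparison 0 were higher at an unadjusted p under 0.05, 0 by DESeq2 and 0 by limma voom. Tmem52b, a membrane protein gene of distal cells, had 352 to 446 CPM in sham, 99.2 to 123 in AKI_PBS and 374 to 446 in AKI_PTPi_mEVs. It fell by 1.82 ± 0.15 (edgeR adjusted p = 1.12e-06) and rose by 1.86 ± 0.15 (edgeR adjusted p = 1.88e-06). The homeobox gene Prox1 fell by 2.17 ± 0.29 (edgeR adjusted p = 4.88e-05) and rose by 1.06 ± 0.29 (edgeR adjusted p = 0.00905). Emx1, another homeobox gene, fell by 1.56 ± 0.22 (edgeR adjusted p = 7.45e-05) and rose by 1.08 ± 0.22 (edgeR adjusted p = 0.00142). Irx1 fell by 1.93 ± 0.24 (edgeR adjusted p = 2.63e-05), differed by 0.20 ± 0.25 between the injured groups (edgeR adjusted p = 0.513) and was below sham in AKI_PTPi_mEVs (-1.72 ± 0.24, edgeR adjusted p = 0.000889). Trpm6, Trpv5 and S100g had the opposite signs to most of this list in the first 2 comparisons.

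**Figure D5:**
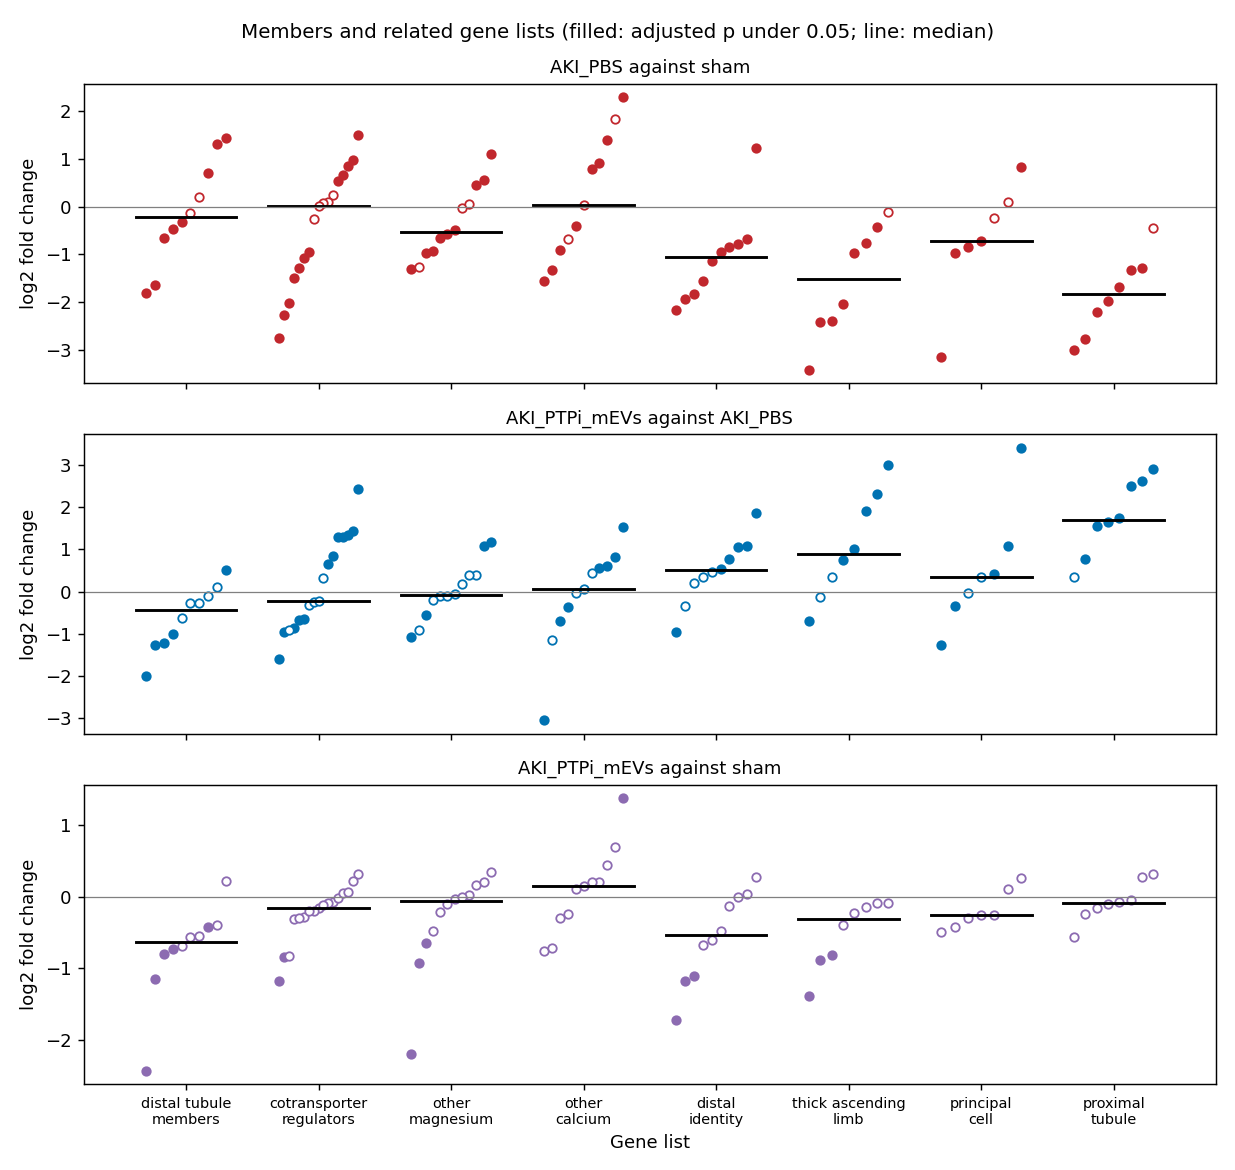
Log2 fold change of every tested gene (points, y axis) in the 10 distal tubule genes and 7 related lists, 1 panel for each comparison, with a line at the median and filled points where the edgeR adjusted p was under 0.05. The distal tubule genes spread to both sides of 0 in AKI_PBS against sham, while the distal identity, thick ascending limb and proximal tubule lists lie mostly below 0.

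Some markers of neighbouring cell types moved between the groups too, and their part in the values of the 10 genes was not tested. Of all genes 27.8% were called higher and 27.9% lower in AKI_PBS against sham, and 25.4% and 25.8% in AKI_PTPi_mEVs against AKI_PBS. In AKI_PTPi_mEVs against sham the shares were 7.43% and 5.79%. Each count below is to be read beside these shares. None of the listed markers was at 0 in all libraries. Summed levels of 8 thick ascending limb markers were 2472 to 2800 CPM in sham, 1123 to 1711 in AKI_PBS and 1960 to 2306 in AKI_PTPi_mEVs, with 7 of 8 called lower in AKI_PBS against sham and 5 higher and 1 lower in AKI_PTPi_mEVs against AKI_PBS. Slc12a3 had 0.597, 1.04 and 0.851 counts for each count of Slc12a1, the cotransporter of that limb, in sham, 5.61, 3.02 and 3.68 in AKI_PBS and 1.37, 1.93 and 1.61 in AKI_PTPi_mEVs. Both injured groups were above sham on this ratio and AKI_PBS was highest. For the vesicle group this rests on Slc12a1, which fell furthest of the 8 markers in AKI_PTPi_mEVs against sham (-1.38 on the log2 scale). The 8 ranged from that value to -0.09 (median -0.32), beside -0.39 for Slc12a3. Ratios to other markers of the limb could therefore place the vesicle group below sham, and were not computed. The 8 proximal tubule markers summed to 8198 to 10632 CPM, 2605 to 4327 and 6431 to 9850 in the same order of groups, with 7 of 8 lower in AKI_PBS against sham and 7 of 8 higher with the vesicles. The 8 principal cell markers summed to 1649 to 2368, 861 to 1752 and 1852 to 1983 CPM, with 1 of 7 tested higher and 4 lower in AKI_PBS against sham and 3 higher and 2 lower with the vesicles. The 6 intercalated cell markers summed to 551 to 613, 309 to 626 and 388 to 427 CPM, with 3 lower in AKI_PBS, and 2 higher and 1 lower with the vesicles. In AKI_PTPi_mEVs against sham edgeR called 3 thick ascending limb markers and 1 intercalated cell marker lower. None of the 4 lists had a marker called higher there by edgeR, DESeq2, limma voom or at an unadjusted p under 0.05. The principal cell list had 0 called lower by any of these, and the proximal tubule list 0 by the 3 tools and 1 at an unadjusted p under 0.05. Of 3 podocyte markers 2 were higher in AKI_PBS against sham and 2 lower with the vesicles, of 4 smooth muscle markers 1 and 1, and of 4 endothelial markers 1 was higher and 1 lower in AKI_PBS and 2 were lower with the vesicles. Of 3 leukocyte markers 1 was higher and 1 lower in AKI_PBS, and 1 was higher with the vesicles. The podocyte, smooth muscle, endothelial and leukocyte lists are too short for their counts to be told from the shares of all genes.

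The genes whose log2 CPM followed 5 of the 10 genes most closely were sought among 10340 candidates over the 9 libraries, as a description. Trpm6 was followed most closely by Rb1cc1, Foxn3, Clasrp, Zmym5 and Ccng2 (Pearson r = 0.987 to 0.995, n = 9). Pvalb was followed by Inmt, Fbln5, Hpd, Atp6v1c2 and Upp2 (r = 0.969 to 0.982), and Wnk1 by Abca13, Sim1, Aspg, Cyp2e1 and Trpm7 (r = 0.9748 to 0.985). Slc12a3 was followed by Sec61a2, Grpel2, Pank3, Snrk and Tlcd2 (r = 0.943 to 0.967), and Calb1 by Gpx6, Mpc1-ps, Casc4, Bnip3l and Ppil6 (r = 0.914 to 0.951). All points share the 3 groups, and no p is given. With Spearman's correlation 1 of the 5 genes was shared for Slc12a3, 1 for Pvalb, 1 for Trpm6, 2 for Calb1 and 2 for Wnk1.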

How the data were processed

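RNA was extracted with phenol and chloroform, and 100 ng of total RNA went into each Tn5-based library, per the labels' protocols. The deposited values are raw counts per gene. They were made with STAR and HTSeq, per the submitters' processing notes, which name the build GRCh38.p14 (human), although the gene identifiers are of mouse. The build, strand setting and filters of the counting are thus not settled here. The group of 1 treated library whose title spells the vesicles differently was taken from its treatment label. Columns were matched by their names, with 0 left unmapped, and 52073 identifiers had a symbol.

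Analysis used R 4.3.3 and edgeR 4.0.16. Of the genes, 17036 passed filterByExpr with the groups given, library sizes were scaled by TMM (factors 0.939 to 1.08), and glmQLFit (robust) was fitted to all 9 libraries with a mean per group and 6 residual degrees of freedom. An SE is the size of the log2 change over the root of F. Two-sided exact permutation tests of CPM cannot go below p = 0.1 with 3 against 3 libraries, and gave 0.1 wherever the groups of a gene did not overlap. Pairs of libraries within groups differed by more than sampling noise (chi-square per degree of freedom 6.79 to 35.6), so none was counted as a duplicate. Exon lengths are from GENCODE M21 (GRCm38).

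The members and lists were chosen with earlier results of these data known. All 10 members are named. Related genes were named by smallest adjusted p: up to 6 for each of the cotransporter, magnesium and calcium lists, up to 4 for distal identity and Klk1 copies, and up to 2 for each marker list, of which none is named. Slc12a1 appears only as the denominator of a ratio and in the limit given with it, and was chosen outside this rule. Cab39, Oxsr1 and Cnnm3 were also named outside it, after their values were seen. Genes most like a member are the 5 with the highest Pearson correlation of log2 CPM (prior count 2) among those whose mean log2 CPM was 3 or more, leaving out models named Gm or ending in Rik. Alternatives were relative log expression factors, library totals, DESeq2 1.42.0, voom of limma 3.58.1, no filter and a stricter filter (mean log2 CPM from 2 upwards), only the groups compared, a replicate block, a log2 change of at least 0.5 and each library left out. Python 3.11.15 with matplotlib 3.10.9 drew the figures.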

Additional observations from a re-analysis of the deposited data

How the results depend on the processing

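Over 18 other settings, 478 values of the 10 genes kept direction and side of the threshold, 40 lost the call, 18 gained it and 4 changed sign. With each library left out, Slc12a3 in AKI_PBS against sham ranged from -0.41 (without AKI_PBS replicate 3) to 0.033 (without AKI_PBS replicate 2), and in AKI_PTPi_mEVs against AKI_PBS from -0.42 (without AKI_PBS replicate 2) to 0.021 (without AKI_PBS replicate 3). Wnk1 in AKI_PTPi_mEVs against AKI_PBS ranged from -0.015 (without AKI_PBS replicate 1) to 0.36 (without AKI_PBS replicate 3), and was -0.0033 without AKI_PBS replicate 2. Klk1b8 in AKI_PTPi_mEVs against sham (-0.24, not called) ranged from -0.47 (without sham replicate 1) to 0.088 (without AKI_PTPi_mEVs replicate 1). None of the values of changed sign was called, and the cause was not tested. Pvalb, Trpm6, Trpv5 and Slc8a1 in AKI_PBS against sham, and Trpm6, Trpv5, S100g and Klk1 in AKI_PTPi_mEVs against AKI_PBS, were called in all 18 settings.

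The 8 members called in AKI_PBS against sham were 4 when a change of at least 0.5 was required, and 5 to 8 with each library left out; those called lower were 3 with library totals, 3 with only the groups compared, 2 with a change of at least 0.5, and 3 to 5 with each library left out. In AKI_PTPi_mEVs against AKI_PBS the 1 called higher was 0 with a change of at least 0.5, and 0 to 2 with each library left out. In AKI_PTPi_mEVs against sham the 5 called, all lower, were 8 with only the groups compared, 2 with a change of at least 0.5, and 3 to 7 with each library left out. Requiring a change of a given size is a stricter test by construction; for the other counts the cause was not tested.

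Over all genes, AKI_PTPi_mEVs against sham called 2252, beside 3259 with only the groups compared, 511 with a change of at least 0.5 and 878 to 3395 with each library left out, so calls in this comparison depend most on single libraries. The others called 5821 of 9488 and 4974 of 8711 with a change of at least 0.5. Library totals moved the median of all genes by -0.11 on the log2 scale in AKI_PTPi_mEVs against AKI_PBS, and changed the sign of none of the 10 genes.

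Whether libraries with the same number were paired is not known. Their deviations from the group means correlated at -0.19 to 0.11 over 9 pairs, and 2 of 9 libraries correlated best with their own number. With 3 libraries a group, such values cannot show that pairing was absent. With the replicate number as a block, 7, 5 and 5 members were called in AKI_PBS against sham, AKI_PTPi_mEVs against AKI_PBS and AKI_PTPi_mEVs against sham. Klk1 copies other than Klk1b5 are too low to pass the stricter filter.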
